A study of Mus musculus with 6 samples.

Results

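The transcription factors of the Mef2 family (Mef2a, Mef2b, Mef2c, Mef2d) and the Tead family (Tead1, Tead2, Tead3, Tead4) were examined together with Yap1 and Wwtr1, which encode the Tead coactivators Yap and Taz. The 10 genes were taken by name, not by their values, from 24809 genes in an RNA sequencing table of C2C12, a line of mouse myoblasts that can fuse into myotubes in low serum. They are covered by 44 RefSeq transcripts, whose values were summed per gene. Control cells (n = 3, under a column heading that names a vector) were set against cells with overexpressed Msx1 (n = 3), a homeodomain repressor known to keep muscle precursors undifferentiated. All libraries were made from total RNA of the same line, labelled as myoblasts. How Msx1 was delivered, whether the line was a clone, and how dense or how far differentiated the cells were at harvest, the sources used here do not give. Such differences between the groups and effects of Msx1 cannot be told apart.

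Mef2 factors bind an A/T-rich sequence in muscle genes and act beside the myogenic factors of the Myod1 family. Class IIa histone deacetylases hold them inactive, and calcium-dependent and stress-activated kinases release them. Tead factors bind the MCAT sequence but activate genes only with a cofactor. In the Hippo pathway, the kinases Stk3 and Stk4 activate Lats1 and Lats2, which phosphorylate Yap and Taz and keep them out of the nucleus, so transcript levels measure neither the activity nor the location of these proteins. Vestigial-like (Vgll) proteins are a separate group of Tead cofactors, and Vgll4 is known to compete with Yap for Tead.

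Several of the genes are read through alternative exons and regulatory sequences, and the sequences that the results below turn on are given here. The exons are from GRCm38, 5′ to 3′ on the coding strand, with the exon in capitals and 15 bases of the adjoining exons in lower case. The 24-base exon of Mef2a and the 21-base exon of Mef2d are the short acidic exons known from muscle and brain.
Yap1, 48-base exon, minus strand, chr9:7950492-7950539: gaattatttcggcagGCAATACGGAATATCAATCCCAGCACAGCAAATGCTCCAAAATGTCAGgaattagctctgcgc
Mef2a, 24-base exon, minus strand, chr7:67244521-67244544: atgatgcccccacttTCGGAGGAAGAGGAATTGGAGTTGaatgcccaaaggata
Mef2d, 21-base exon, plus strand, chr3:88161781-88161801: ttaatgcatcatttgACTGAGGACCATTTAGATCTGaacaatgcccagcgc
Tead4, 129-base exon, minus strand, chr6:128247960-128248088: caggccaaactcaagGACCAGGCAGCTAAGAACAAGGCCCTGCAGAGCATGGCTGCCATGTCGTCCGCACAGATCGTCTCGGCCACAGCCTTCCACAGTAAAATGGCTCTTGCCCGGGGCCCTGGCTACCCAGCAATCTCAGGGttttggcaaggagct

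Promoters are from RefSeq (GRCm38.p6) and run from 250 bases before to 50 bases after an annotated start. Capitals mark the MCAT letters CATTCC on either strand (GGAATG on the other) or the Mef2 letters CTANNNNTAG. N stands for any base, so a match to the Mef2 letters need not be A/T-rich, and sites with other end bases are missed. A match to either set of letters is not evidence of binding. Ankrd1, Ccn1 and Tnnt2 are shown as known Tead targets whose levels changed in both directions, and Jun and Mef2a because they hold the Mef2 letters.
Ankrd1, minus strand, chr19:36119795-36120094: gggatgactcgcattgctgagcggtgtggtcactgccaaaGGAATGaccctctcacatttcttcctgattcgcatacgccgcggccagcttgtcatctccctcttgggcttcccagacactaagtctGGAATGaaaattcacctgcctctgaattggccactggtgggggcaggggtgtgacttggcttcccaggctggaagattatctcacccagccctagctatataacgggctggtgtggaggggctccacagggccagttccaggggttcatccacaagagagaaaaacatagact
Ccn1, minus strand, chr3:145649936-145650235: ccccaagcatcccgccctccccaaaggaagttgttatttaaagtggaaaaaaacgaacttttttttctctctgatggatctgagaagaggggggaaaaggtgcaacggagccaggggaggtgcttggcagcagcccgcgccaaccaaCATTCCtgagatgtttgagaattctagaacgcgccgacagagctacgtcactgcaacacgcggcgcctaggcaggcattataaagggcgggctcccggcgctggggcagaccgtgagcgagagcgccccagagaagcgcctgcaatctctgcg
Tnnt2, plus strand, chr1:135836084-135836383: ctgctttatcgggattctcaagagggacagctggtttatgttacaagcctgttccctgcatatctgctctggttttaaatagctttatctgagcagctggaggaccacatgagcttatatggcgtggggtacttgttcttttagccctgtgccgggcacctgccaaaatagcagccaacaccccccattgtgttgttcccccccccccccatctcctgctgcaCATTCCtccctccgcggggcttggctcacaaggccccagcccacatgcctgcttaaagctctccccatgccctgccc
Jun, minus strand, chr4:95052173-95052472: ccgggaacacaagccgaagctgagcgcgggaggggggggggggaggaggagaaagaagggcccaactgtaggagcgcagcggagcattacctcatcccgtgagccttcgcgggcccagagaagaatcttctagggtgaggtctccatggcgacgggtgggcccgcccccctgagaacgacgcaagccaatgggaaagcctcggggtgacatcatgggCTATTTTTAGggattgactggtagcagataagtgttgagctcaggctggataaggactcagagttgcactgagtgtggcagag
Mef2a, minus strand, chr7:67372809-67373108: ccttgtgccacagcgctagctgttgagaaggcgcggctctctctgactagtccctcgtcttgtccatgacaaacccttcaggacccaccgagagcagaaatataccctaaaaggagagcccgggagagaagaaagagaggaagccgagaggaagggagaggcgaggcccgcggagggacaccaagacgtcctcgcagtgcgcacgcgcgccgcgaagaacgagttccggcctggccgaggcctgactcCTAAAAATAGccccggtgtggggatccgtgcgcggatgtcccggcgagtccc

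Levels are FPKM (fragments per transcript, scaled by its length and by the mapped fragments of the library) summed per gene, given as mean ± SD. Changes are differences in log2(FPKM + 1), Msx1 overexpression minus control, with the standard error (SE) and the Benjamini-Hochberg adjusted p of limma over all 12371 genes whose mean reached 0.5 FPKM. A gene was called at an adjusted p under 0.05. Msx1 was at 7.99, 7.13 and 7.54 FPKM in control replicates 1 to 3, against 1004, 943.7 and 912.1 FPKM with Msx1. The estimated depth was 18.6 to 24 M fragments (M, mega) per library. No label ties the replicates to separate cultures, so the p-values reflect the spread of these samples alone, and that spread may be technical.

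Of the 10 genes, 8 passed the minimum, 5 were called higher with Msx1 (Mef2a, Mef2d, Tead3, Tead4 and Wwtr1), 1 was called lower (Tead2), and 2 were not called (Tead1 and Yap1). Over all genes tested, 54.4% were called, 22% as higher and 32.4% as lower, so calls as such were common. The share of all genes without overlap between groups was not counted, so a lack of overlap is given only as a description. The median change of the 8 genes was 0.18, against a median of -0.07 over all genes tested.

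**Figure D1:**
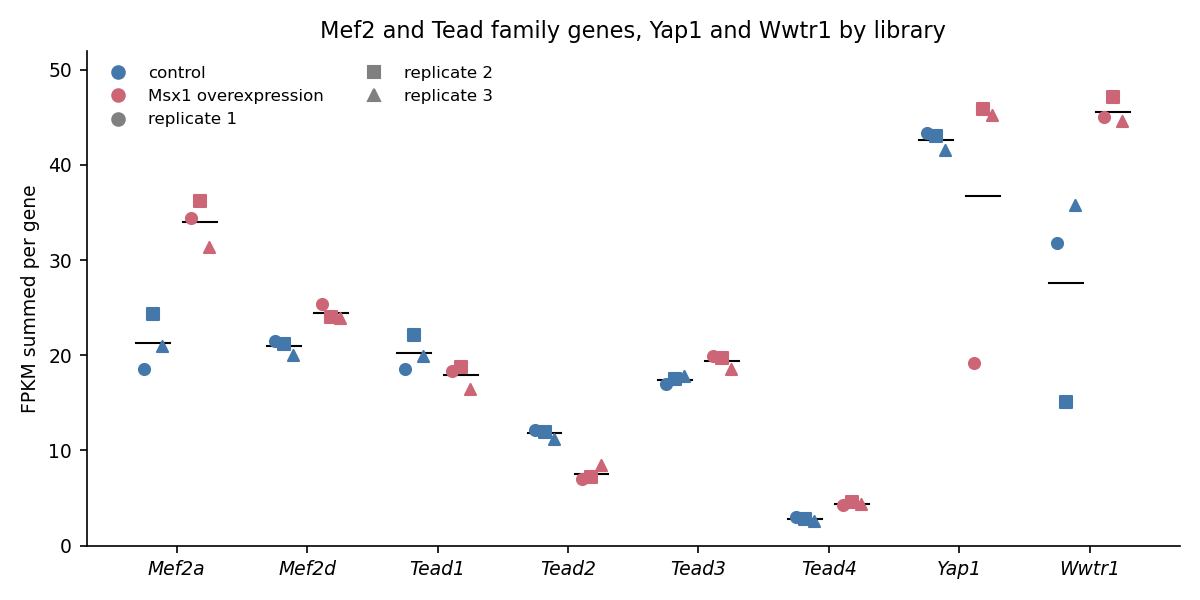
FPKM summed per gene (y axis) for the 8 genes above the minimum, in control (blue) and Msx1 overexpression (red) libraries, with the replicate number as the symbol and the group mean as a black line. Mef2a, Mef2d, Tead2, Tead3, Tead4 and Wwtr1 show no overlap between groups, while Yap1 in Msx1 replicate 1 (19.2 FPKM) and Wwtr1 in control replicate 2 (15.1 FPKM) lie far from their groups.

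In the Mef2 family, Mef2a and Mef2d carried nearly all of the signal, and both were higher with Msx1. Mef2a (chr7:67231163-67376456, GRCm38), a factor active in myotubes, was at 18.5, 24.4 and 20.99 FPKM in control and at 34.5, 36.2 and 31.4 FPKM with Msx1. Every Msx1 library lay above every control library. The means were 21.3 ± 2.95 and 34.0 ± 2.45 FPKM (n = 3 each), a 1.60-fold difference and a change of 0.66 (SE 0.10, adjusted p = 0.000861), and Mef2a stayed called in each of 17 refits with another scaling, filter or library left out.

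Mef2d (chr3:88141941-88172091), a broadly expressed member, was at 21.5, 21.2 and 20.1 FPKM in control and at 25.4, 24.02 and 23.9 FPKM with Msx1. The groups did not overlap, although the gap between them was small. The change was 0.21 (SE 0.05, adjusted p = 0.0101), a 1.17-fold difference of means, and it was not called when only the most abundant transcript of each gene was used (0.40, adjusted p = 0.103). An annotated antisense transcript, 1700113A16Rik, overlaps Mef2d, and Lysmd4 overlaps Mef2a on the other strand. No source used here says whether counting used strand, so reads of such overlapping genes cannot be told apart.

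Mef2c (chr13:83504017-83667079), the member known to rise as myoblasts differentiate, was listed at 0 in all control libraries and at 0.024, 0.020 and 0.0074 FPKM in Msx1 replicates 1, 2 and 3. These values came from 1 of its 18 transcripts. Mef2b (chr8:70152761-70167488) was listed at 0 in all control libraries and in Msx1 replicate 2, and reached 0.12 and 0.011 FPKM in Msx1 replicates 1 and 3. Neither gene was tested, and neither contributed more than 0.193% of the family's summed FPKM in any library. The family sum was 40.0, 45.6 and 41.0 FPKM in control and 59.97, 60.3 and 55.3 FPKM with Msx1. Mef2a made up 50.3 ± 3.66% of it in control and 58.1 ± 1.76% with Msx1, and the ratio of Mef2a to Mef2d FPKM was 1.02 ± 0.15 in control and 1.39 ± 0.10 with Msx1. The ratios ran from 0.861 to 1.15 in control and from 1.31 to 1.51 with Msx1, without overlap.

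The 4 Tead genes differed from each other in direction. Tead4 (chr6:128227143-128300813), a member known as a target of myogenic factors in differentiating C2C12 cells, was at 2.97, 2.83 and 2.55 FPKM in control and at 4.25, 4.55 and 4.34 FPKM with Msx1. Tead2 (chr7:45215792-45233468), a member known from early embryos, was at 12.2, 11.95 and 11.2 FPKM in control and at 7.02, 7.22 and 8.49 FPKM with Msx1. Neither gene overlapped between groups, and they moved in opposite directions. The change was 0.51 for Tead4 (SE 0.07, adjusted p = 0.000508), a 1.58-fold difference, and -0.58 for Tead2 (SE 0.08, adjusted p = 0.000446), whose mean fell from 11.8 ± 0.50 to 7.58 ± 0.80 FPKM. Tead2 was called lower in all 17 refits, and Tead4 was called in all but the refit with the most abundant transcript (0.31, adjusted p = 0.202). Tead2 overlaps the gene Cd37 on the other strand.

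Tead3 (chr17:28331671-28350805) was at 17.0, 17.5 and 17.8 FPKM in control and at 19.9, 19.8 and 18.6 FPKM with Msx1, with no overlap. The change was 0.15 (SE 0.05, adjusted p = 0.0419) and it was not called in 8 of 17 refits, in which adjusted p ran up to 0.144; leaving out any control library, Msx1 replicate 1 or Msx1 replicate 2 was enough. Tead1 (chr7:112679356-112906784), a factor of MCAT-driven muscle genes, was at 18.5, 22.1 and 19.98 FPKM in control and at 18.4, 18.8 and 16.5 FPKM with Msx1. These ranges overlapped, and the change of -0.17 (95% interval -0.35 to 0.02, adjusted p = 0.11) was not called. Tead1 was called lower without control replicate 1 (-0.22, adjusted p = 0.0345) and with sample weights (-0.14, adjusted p = 0.0274).

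The sum over the 4 Tead genes lay between 50.7 and 54.4 FPKM in control and between 47.9 and 50.3 FPKM with Msx1, and was not tested. Its makeup differed more than its size. Tead2 gave 22.6 ± 1.27% of the sum in control and 15.4 ± 1.99% with Msx1, whereas Tead3 gave 33.4 ± 1.16% and 39.4 ± 0.70% and Tead4 gave 5.33 ± 0.48% and 8.89 ± 0.28%. Tead1 gave 38.7 ± 2.05% and 36.3 ± 1.62%, with overlapping ranges. The ratio of Tead4 to Tead2 was 0.244, 0.237 and 0.227 in control and 0.605, 0.630 and 0.512 with Msx1, so each Msx1 library held more Tead4 per Tead2 than any control library. These shares and ratios compare genes within a library, so a scaling by 1 factor per library does not change them. Quantile normalization can change them, and they were not recomputed under it.

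**Figure D2:**
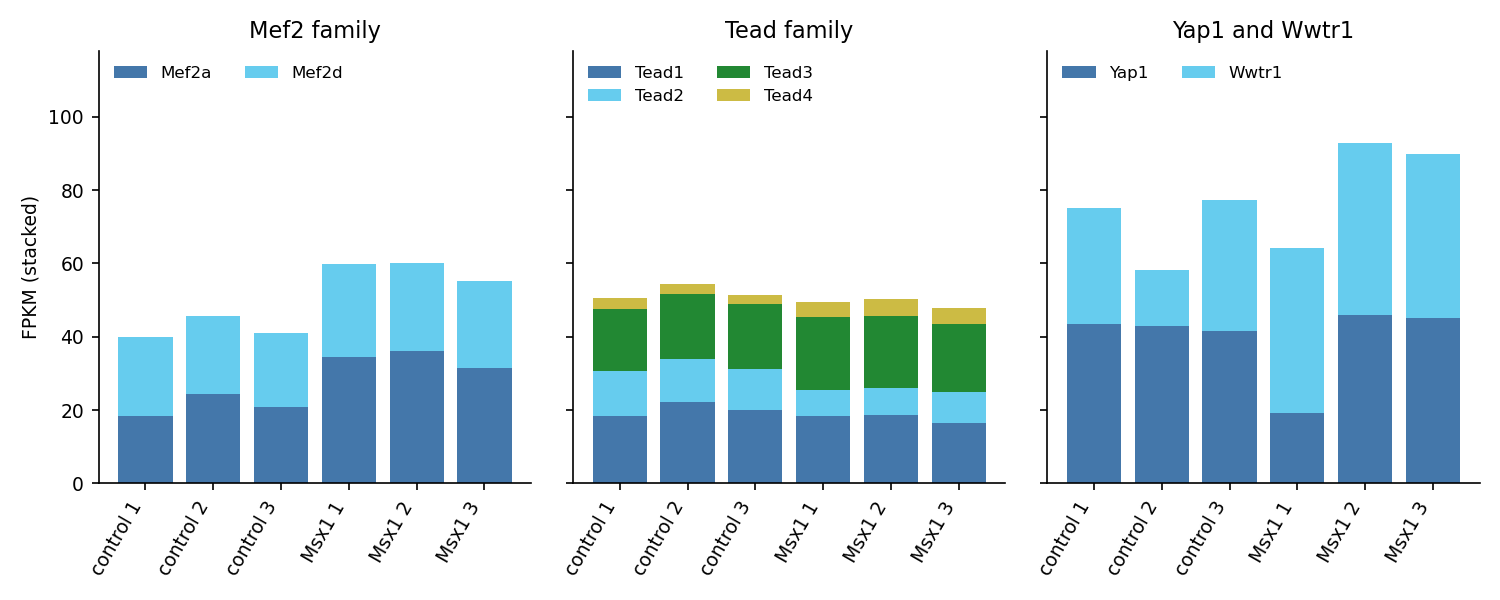
Stacked FPKM (y axis) of the Mef2 genes, the Tead genes, and Yap1 with Wwtr1 in each of the 6 libraries (x axis). The Mef2 sum is 40.0 to 45.6 FPKM in control and 55.3 to 60.3 FPKM with Msx1, while the Tead sum stays between 47.9 and 54.4 FPKM with a smaller Tead2 segment and a larger Tead4 segment.

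Wwtr1 (chr3:57455644-57575910), which encodes Taz, was at 31.8, 15.1 and 35.8 FPKM in control and at 45.1, 47.1 and 44.7 FPKM with Msx1. All Msx1 libraries lay above all control libraries, but control replicate 2 was far below the other control libraries. The means were 27.6 ± 11.0 and 45.6 ± 1.32 FPKM (1.66-fold), with a change of 0.79 (SE 0.27, adjusted p = 0.0385). Without control replicate 2 the change was 0.42 with a smaller error (SE 0.07, adjusted p = 0.0016), so the direction held and the size fell by more than 1.5 times. With any Msx1 library left out, adjusted p was 0.0827 to 0.0891, and with sample weights, with the most abundant transcript or without a minimum level it was 0.0668, 0.0747 and 0.0886, so the call was lost in each of these refits.

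Yap1 (chr9:7931999-8004638) was at 43.4, 43.0 and 41.6 FPKM in control and at 19.2, 45.9 and 45.2 FPKM with Msx1. Msx1 replicate 1 was below every control library, and the other two Msx1 libraries were above all of them. The change of -0.31 (95% interval -0.98 to 0.36, adjusted p = 0.4) was not called. Without Msx1 replicate 1 it was 0.09 (SE 0.06, adjusted p = 0.241), the opposite sign and again not called. Without both outlying libraries, control replicate 2 and Msx1 replicate 1, the change was 0.43 for Wwtr1 (SE 0.08, adjusted p = 0.00755) and 0.10 for Yap1 (SE 0.07, adjusted p = 0.282).

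The low values of Yap1 and Wwtr1 in 1 library each were seen in few genes. Of 6649 genes whose mean reached 10 FPKM, 16 in control replicate 2, Wwtr1 included, were below 0.5 times both other libraries of the group. In Msx1 replicate 1 this held for 7 genes, Yap1 included, and in the other libraries for 5 to 10 genes. The cause of these low values was not tested. The ratio of Yap1 to Wwtr1 FPKM was 1.36, 2.86 and 1.16 in control and 0.427, 0.973 and 1.01 with Msx1. Every control library held more Yap1 than Wwtr1, and only Msx1 replicate 3 did so among the Msx1 libraries. For the log2 ratio the mean difference was -1.14, with p = 0.1 in an exact two-sided permutation test, which cannot go lower with 3 libraries a group. The difference was -0.75 without control replicate 2 (p = 0.3 in the same permutation test) and -0.74 without Msx1 replicate 1 (p = 0.2).

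**Figure D3:**
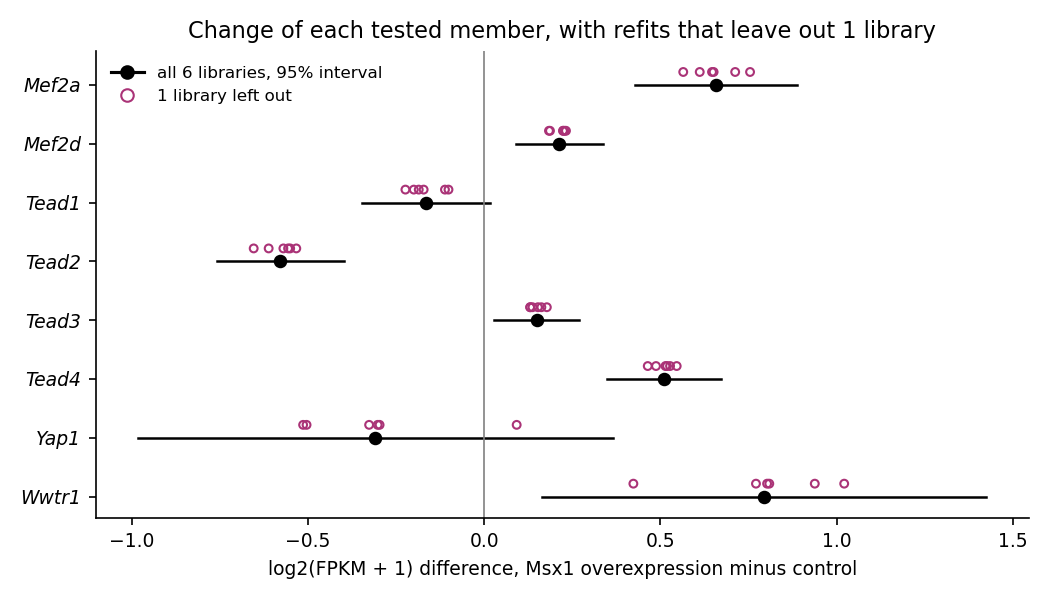
Change of each tested gene (x axis, log2(FPKM + 1) difference, Msx1 overexpression minus control) with its 95% interval from all 6 libraries (black) and the values with 1 library left out (open circles). Yap1 crosses 0 when Msx1 replicate 1 is left out (0.09), Wwtr1 drops to 0.42 without control replicate 2, and the other genes keep their sign.

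By level, Yap1 was the highest of the genes in control at 42.7 FPKM, above Wwtr1, whose range overlapped that of Mef2a. Mef2a, Mef2d and Tead1 lay between 20.2 and 21.3 FPKM with overlapping ranges, followed by Tead3, Tead2 and Tead4, each separate from the next. With Msx1, Wwtr1, Yap1 and Mef2a led at 45.6, 36.8 and 34.0 FPKM with overlapping neighbours, and Mef2d followed at 24.4 FPKM, apart from both neighbours. Tead3 and Tead1 overlapped at 19.4 and 17.9 FPKM, and Tead2 and Tead4 were again the lowest. These levels are per length of transcript and so can be set side by side.

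Of 8846 genes whose mean reached 5 FPKM, those whose log2(FPKM + 1) followed Wwtr1, the called gene with the largest change, most closely over the 6 libraries were Tbc1d25 (Pearson r = 0.993), Sema4c (r = 0.989) and Agfg2 (r = 0.988). Wwtr1 holds that rank through control replicate 2, without which its change was 0.42 and that of Mef2a 0.75, and with sample weights they were 0.41 and 0.68. The points share the low control replicate 2 and the difference between groups, and r is given as a description. Tbc1d25 was at 6.09, 2.69 and 6.21 FPKM in control and between 7.54 and 7.76 FPKM with Msx1, so its lowest library was also control replicate 2.

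The transcripts of a gene differed in an exon in Mef2a, Mef2d, Tead1, Tead4 and Yap1, and the share of FPKM in transcripts holding an exon was compared for the exons given here. Transcript values are estimates made by StringTie, and transcripts of a gene also differ in annotated length. No tested transcript share of these genes was called in the fit over 9303 shares, in which 72 (0.774%) were called, 0.398% as higher and 0.376% as lower. The 48-base exon of Yap1, whose sequence is given above and which lengthens the coding region from 1416 to 1464 bases, was held by 54.1%, 53.9% and 54.0% of Yap1 FPKM in control and by 61.3%, 57.3% and 59.5% with Msx1. All Msx1 libraries, including the one with low Yap1, were above all control libraries, with p = 0.1 in the exact permutation test, its smallest possible value, and an adjusted p of 0.533 in the fit of shares.

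For Mef2a, in the fit of single transcripts, NM_001291191 and NM_001291192 rose by 0.70 (adjusted p = 0.0107) and 0.68 (adjusted p = 0.00775), and NM_001291195 rose by 0.49 (adjusted p = 0.0238). Over all 17764 transcripts tested, 32.3% were called, 13.6% as higher and 18.6% as lower. The 24-base acidic exon was in 5.43 ± 1.77% of Mef2a FPKM in control and 6.01 ± 1.32% with Msx1, with overlapping ranges. This share rests on the 5 of 7 Mef2a transcripts that could be matched to an annotation, with at least 87.2% of its FPKM in every library.

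In Mef2d, the 21-base acidic exon was in 25.5%, 27.96% and 40.7% of the FPKM in control and in 30.6%, 28.3% and 18.8% with Msx1, and the ranges overlapped. Its 138-base exon, which replaces one of 135 bases, was in 84.3 ± 2.92% in control and 86.6 ± 1.38% with Msx1, also overlapping. The shares of a 63-base exon of Tead1 and a 129-base exon of Tead4 varied widely within control, and their groups overlapped. The 63-base exon of Tead1 was in 44.2%, 85.5% and 93.9% of its FPKM in control and in 85.4%, 88.5% and 54.4% with Msx1. A 12-base exon of Tead1 was in 100%, 96.4% and 100% in control and in 95.97%, 97.7% and 75.8% with Msx1, also overlapping. The 129-base exon of Tead4 was in 41.2%, 75.7% and 100% in control and in 59.3%, 66.2% and 54.3% with Msx1. For Tead2 and Tead3, 1 transcript each (NM_011565 and NM_011566) held at least 89.7% of the FPKM in every library.

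**Figure D4:**
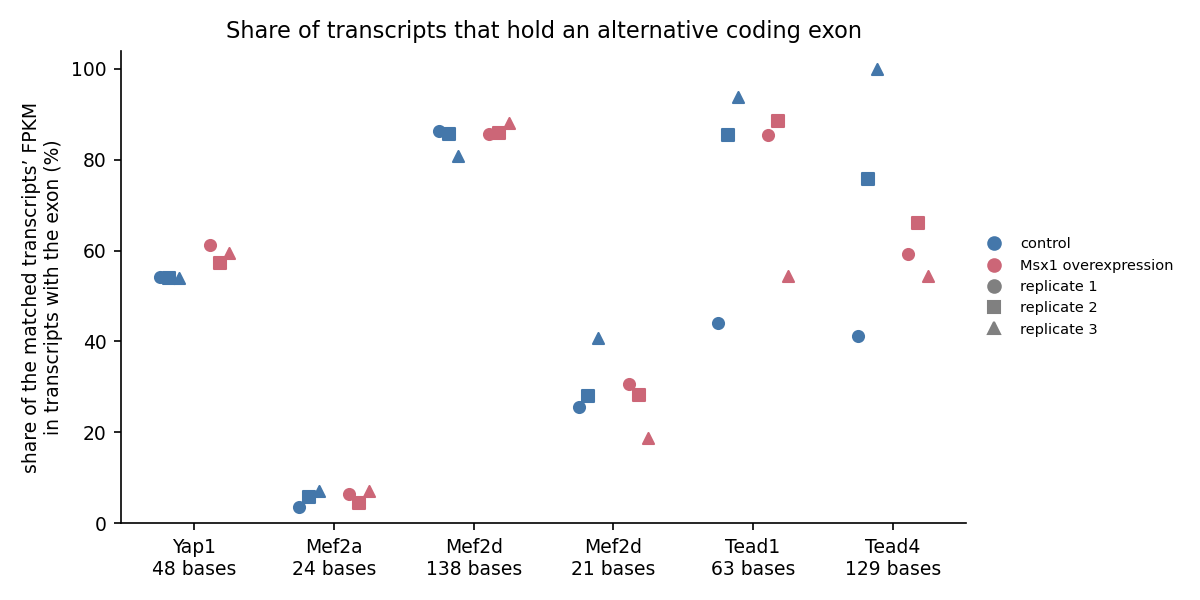
Share (y axis, percent) of FPKM in transcripts that hold the named alternative coding exon, out of the gene's transcripts matched to an annotation (5 of 7 for Mef2a). Points are libraries, with blue for control, red for Msx1 overexpression and the replicate number as the symbol. The 48-base exon of Yap1 shows no overlap between groups, while those of Tead1 and Tead4 run from 44.2% to 93.9% and from 41.2% to 100% within control.

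Among the Tead cofactors other than Yap and Taz, Vgll4 was at 37.0, 38.7 and 38.1 FPKM in control and at 56.8, 58.1 and 61.2 FPKM with Msx1. All Msx1 libraries were higher, and the change of 0.62 (SE 0.05, adjusted p = 2.65e-05) was called in all 17 refits. Vgll3 fell by 0.22 (SE 0.07, adjusted p = 0.023) from 17.7 ± 1.38 to 14.98 ± 0.59 FPKM, but was not called in 5 refits, among them 2 other scalings of the libraries (adjusted p = 0.0796 and 0.283) and those without control replicate 2, Msx1 replicate 1 or Msx1 replicate 3. Vgll2 stayed below the minimum and Vgll1 was listed at 0 in every library.

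Target genes of Yap, Taz and Tead, taken from a published signature of human cancers, went in both directions. Of 22 listed genes 21 were tested, with 9 higher, 3 lower and 9 not called, and a median change of 0.12 against -0.07 over all genes. Among all genes tested, 22% were called higher and 32.4% lower. Igfbp3, an insulin-like growth factor binding protein, was at 28.6 to 29.7 FPKM in control and 190.0 to 205.2 FPKM with Msx1, a 6.78-fold difference (change 2.72, SE 0.05, adjusted p = 1.48e-08). Gadd45a, a growth arrest gene, rose 6.41-fold, from 20.4 ± 2.04 to 131.0 ± 4.60 FPKM (adjusted p = 1.01e-07), and Nt5e, a cell-surface ectonucleotidase, rose from 3.28 ± 0.70 to 33.2 ± 0.98 FPKM (adjusted p = 3.24e-07). Crim1, a transmembrane protein that binds bone morphogenetic proteins, rose from 12.6 ± 0.61 to 31.8 ± 1.44 FPKM (adjusted p = 1.33e-06).

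The most widely used Yap and Taz readouts, which were picked after their values were seen, did not move together. Ankrd1, an ankyrin repeat protein of muscle, was at 119.0, 125.8 and 116.8 FPKM in control and at 60.1, 61.8 and 64.4 FPKM with Msx1, with every Msx1 library below every control library (change -0.95, SE 0.05, adjusted p = 3.53e-06). Ccn1, a secreted matricellular protein, fell from 423.6 ± 50.9 to 290.7 ± 8.38 FPKM (change -0.54, SE 0.09, adjusted p = 0.00162). Ccn2, its close relative, rose from 11.1 ± 0.83 to 17.96 ± 1.11 FPKM (change 0.65, SE 0.07, adjusted p = 0.000153). All 3 kept their call and sign in 17 refits. Promoter entries existed for 15 of the 22 listed target genes, and Ccn2 had none. The MCAT letters occurred in 4817 of 32851 promoters of this length (14.7%) and in 7 of 17 promoters of the target list (41.2%), those of Amotl2, Ankrd1, Axl, Ccn1, Crim1, Lats2 and Ptpn14. In the sequences shown above their leftmost base lies at -210 and -123 from the start in Ankrd1 and at -103 in Ccn1. Of the genes with a match, Ankrd1 and Ccn1 fell, Amotl2, Crim1 and Lats2 rose, and Axl and Ptpn14 were not called. The same letters were in promoters of Tead3, Yap1 (at -141), Vgll4 (at -82) and Wwtr1 (at -170 or -136, the same site counted from 2 annotated starts), in 1 promoter each of Mef2c (at -75) and Vgll1 (at -162), both below the minimum, and in that of Vgll3 (at -63), which was called lower. They were in no promoter listed for Mef2a and Mef2d, which were called higher, or for Tead2, which was called lower. Nor were they in those of Mef2b and Vgll2, which were not tested. Tead1 and Tead4 had no promoter entry and could not be searched.

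The kinases and regulators of the Hippo pathway were also called in both directions, with 11 higher, 5 lower and 9 not called of 25 tested (median 0.11). Calls in both directions were common, at 22% higher and 32.4% lower over all genes tested. Lats2, the kinase that phosphorylates Yap and Taz and is itself a Yap target, rose from 20.8 ± 0.98 to 30.9 ± 1.63 FPKM (change 0.55, SE 0.06, adjusted p = 0.000139), while Lats1 had a change of -0.18 (adjusted p = 0.171) and was not called. Amot, a junction-associated protein that binds Yap, fell from 13.99 ± 1.26 to 7.42 ± 0.47 FPKM (adjusted p = 6.65e-05), whereas its relatives Amotl1 and Amotl2 rose by 0.41 (adjusted p = 0.00117) and 0.29 (adjusted p = 0.00633). Map4k4, a kinase that acts on Lats beside Stk3 and Stk4, fell from 77.3 ± 2.43 to 51.7 ± 1.08 FPKM (adjusted p = 3.31e-05). Wwc1, an upstream activator, was low in both groups, at 0.24 to 0.31 FPKM in control and 0.87 to 0.97 FPKM with Msx1 (change 0.59, adjusted p = 0.000246), and passed the minimum only through the Msx1 libraries.

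**Figure D5:**
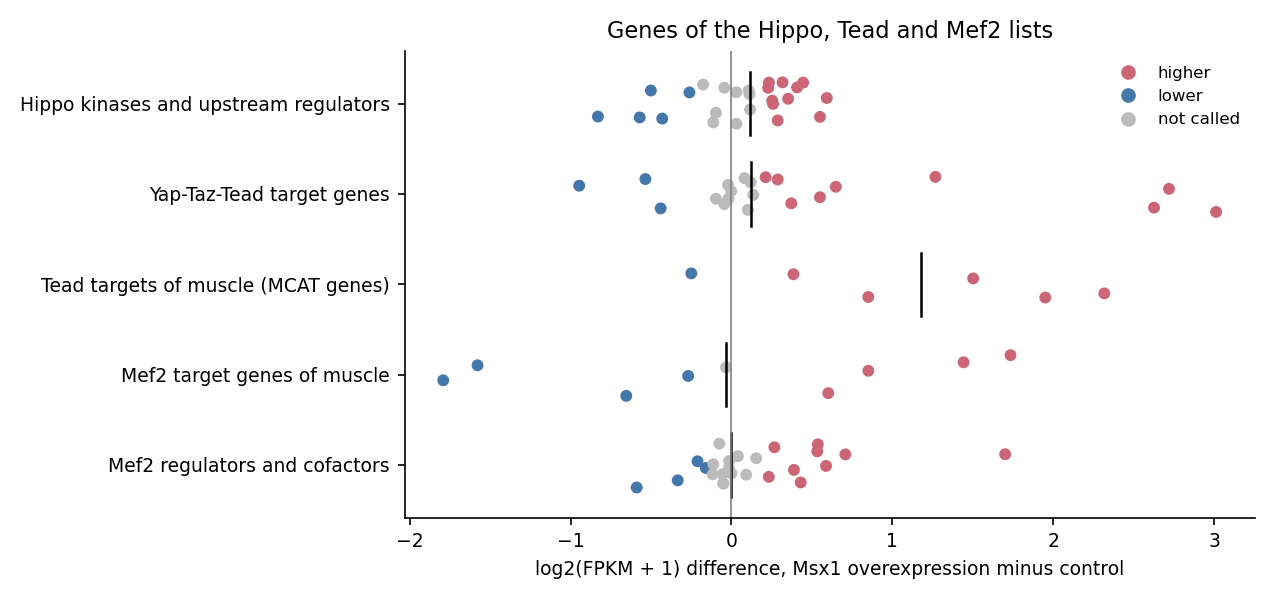
Change of each tested gene (x axis, log2(FPKM + 1) difference, Msx1 overexpression minus control) in 5 gene lists, colored by call, with the list median as a black line; the vertical position of a point within a row carries no meaning. Hippo regulators and Yap-Taz-Tead targets have medians of 0.11 and 0.12 with genes on both sides of 0. Of 6 tested MCAT genes of muscle 5 are higher, against 22% of all genes tested. Myh7, among these 5, passed the minimum only through the Msx1 libraries, while Tnnt2, Acta1, Myog and Fgfr4 passed it in control as well.

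Of 8 listed muscle genes known to be driven through MCAT sequences, 6 were tested and 2 were below the minimum. Of those tested, 5 were called higher and 1 lower (median 1.18). The count and the median include Myh7, whose control level was below the minimum. Tnnt2, Acta1, Myog and Fgfr4, the others called higher, had control means above it. Fgfr4 rose by 0.39 (adjusted p = 0.00837). Over all genes tested, 22% were called higher and 32.4% lower. Tnnt2, troponin T of cardiac and embryonic muscle, was at 13.3, 9.92 and 11.6 FPKM in control and at 45.0, 47.0 and 50.2 FPKM with Msx1 (change 1.95, SE 0.10, adjusted p = 1.87e-06). Acta1, skeletal alpha-actin, rose from 2.87 ± 0.52 to 18.2 ± 1.62 FPKM (adjusted p = 1.54e-06), and Myog, the myogenic factor of differentiating cells, rose from 2.76 ± 0.47 to 5.75 ± 0.15 FPKM (adjusted p = 0.000171). Myh7, slow myosin heavy chain, was at 0.014 to 0.077 FPKM in control and 1.86 to 2.04 FPKM with Msx1 (adjusted p = 1.55e-06), and passed the minimum only through the Msx1 libraries. Acta2, smooth muscle actin, was the gene that fell, from 807.7 ± 24.0 to 679.4 ± 25.5 FPKM (adjusted p = 0.0135). The MCAT letters were in 5 of 10 promoters of this list (50%), and in the Tnnt2 promoter shown above their leftmost base lies at -27.

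The listed Mef2 target genes, which range from muscle genes such as Mylpf and Myom2 to Jun, Nr4a1 and Klf2, showed no common direction as a list. Of 19 listed genes 10 were below the minimum, Meg3 among them at 0 in every library, and of the 9 tested 4 were higher, 4 lower and 1 was not called (median -0.03). The shares over all genes tested were 22% higher and 32.4% lower. Those that rose were Mylpf, the regulatory myosin light chain of fast muscle, from 4.65 ± 0.83 to 17.8 ± 2.55 FPKM (adjusted p = 1.82e-05), Myom2, an M-band protein, from 0.60 ± 0.17 to 3.34 ± 0.28 FPKM (adjusted p = 8.62e-06), Myog, which is in both lists, and Ppargc1a, a coactivator of oxidative metabolism that passed the minimum only through the Msx1 libraries, by 0.60 (adjusted p = 0.000483). Those that fell included Jun, an immediate early gene with a Mef2 site known to control it, at 37.4, 37.2 and 32.3 FPKM in control and 23.0, 22.8 and 20.95 FPKM with Msx1 (change -0.65, SE 0.07, adjusted p = 0.000147). Klf2, a zinc finger factor that Mef2 is known to activate in endothelium, fell from 13.7 ± 2.23 to 3.24 ± 0.43 FPKM (adjusted p = 1.05e-05), and Nr4a1 and Des also fell. Of the untested genes, Lmod2, Lmod3, Xirp1 and Hrc were higher with Msx1 without overlap, each at means below 0.5 FPKM. Myom1, Smyd1 and Srpk3 had higher means and Ckm and Hdac9 lower means with Msx1, all with overlapping groups. The Mef2 letters were in 1211 of 32851 promoters (3.69%) and in 4 of 17 of this list (23.5%). The 4 were those of Des, Jun and Klf2, which fell, and 1 of Hdac9, which was below the minimum. No promoter listed for Myog, Mylpf and Ppargc1a, which rose, or for Nr4a1, which fell, held them. Myom2 had no promoter entry. The leftmost base of the Mef2 letters lies at -33 in Jun and at -2 in Mef2a itself, as marked in the sequences above.

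Regulators of Mef2 had a median change near 0 (0.0002), with 9 higher, 4 lower and 12 not called of 25 tested. Beside this, 22% of all genes tested were called higher and 32.4% lower. Of the class IIa deacetylases that repress Mef2, Hdac5 rose from 46.4 ± 1.24 to 54.6 ± 0.47 FPKM (adjusted p = 0.00336) and Hdac7 from 31.5 ± 4.50 to 45.7 ± 0.72 FPKM (adjusted p = 0.00165), while Hdac4 had a change of -0.05 (adjusted p = 0.603) and was not called. Of the kinases that act against these deacetylases, Sik1 was at 4.26 to 5.30 FPKM in control and 16.3 to 18.4 FPKM with Msx1 (change 1.70, SE 0.08, adjusted p = 1.9e-06), and Camk2a, Camk2b and Camk2d rose by 0.71, 0.43 and 0.39 (adjusted p = 0.000316, 0.00763 and 0.00315). Others of this kind were not called, namely Camk2g (-0.11, adjusted p = 0.639), Camk1 (-0.02, adjusted p = 0.877) and Prkd2 (-0.01, adjusted p = 0.888), and Camk4 and Prkd1 were below the minimum. The stress-activated kinases that phosphorylate Mef2 split, with Mapk12, the form of skeletal muscle, up by 0.59 (adjusted p = 0.000485) and Mapk11 and Mapk14 changed by -0.33 and -0.16 (adjusted p = 0.00279 and 0.018). The coactivator Ep300 rose by 0.54 (adjusted p = 0.00101).

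Markers of the cell states around these changes were measured in the same libraries. All 8 proliferation markers were lower with Msx1 (median -1.27), and their summed level was 290.4 to 335.8 FPKM in control and 152.4 to 159.5 FPKM with Msx1. For this and the counts below, the shares over all genes tested were 22% higher and 32.4% lower. Of 8 myoblast and muscle markers 2 rose, 4 fell and 2 were not called; Myf5, the early myogenic factor, fell from 9.01 ± 0.40 to 1.64 ± 0.10 FPKM, and Myod1, the defining factor of the line, was at 23.3 ± 0.92 and 21.5 ± 0.68 FPKM (adjusted p = 0.109). Of the osteoblast markers 4 rose and 1 fell of 5 tested, led by Alpl, bone alkaline phosphatase, with 62.3 ± 2.14 FPKM after Msx1 against 0.61 ± 0.25 FPKM, while Runx2, Bglap and Col1a1 rose by 0.29, 0.47 and 0.24. Phex, an endopeptidase of bone, was the marker that fell, from 2.44 ± 0.76 to 0.11 ± 0.02 FPKM, and it passed the minimum only through control; Ibsp was listed at 0 in every library. The summed osteoblast level, 41.8 to 46.5 FPKM in control and 110.9 to 115.4 FPKM with Msx1, differed mainly by Alpl. Of the adipocyte markers 3 fell and 1 was not called of 4 tested (sums 36.6 to 43.6 and 29.3 to 29.7 FPKM), with Plin1 and Lep at 0 throughout. Fabp4, one of those that fell, passed the minimum only through control. Adipoq and Cfd, untested, were listed at 0 in all control libraries, and with Msx1 Adipoq was at 0.27, 0.82 and 0.59 FPKM and Cfd at 0.64, 0.86 and 0.51 FPKM. All 5 tested smooth muscle markers fell (sums 1056 to 1115 and 866.8 to 929.0 FPKM), with the defining Myh11 and Myocd below the minimum. Des was counted among both the smooth muscle and the muscle markers that fell. No endothelial marker of 6 reached the minimum (sums at most 0.947 FPKM), and of 2 tested macrophage markers Lyz2 rose and Cd68 fell (sums 12.04 to 14.7 and 21.4 to 25.8 FPKM) with Ptprc and Adgre1 at 0 throughout. The part of these differences in the levels of the Mef2, Tead, Yap1 and Wwtr1 transcripts was not tested, and in such bulk samples fewer cells of a type and less RNA per cell cannot be told apart.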

How the data were processed

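The authors deposited 1 table of FPKM per RefSeq transcript and library. The tools, per the submitters' processing notes, were Trimmomatic, HISAT2 and StringTie on GRCm38 (mm10); no source used here gives their versions or settings. Trizol RNA and a NEBNext Ultra kit were used, per the labels' protocols. Control columns were matched to control samples by replicate number, as their headings use another word than the titles. Values depend on the library total, which ran from 390439 to 441835 FPKM.

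Of 38468 transcripts, 38188 were named from a RefSeq gene table and 161 from GENCODE, and 119 had no symbol. FPKM were summed per gene. A readthrough transcript of Borcs8 and Mef2b was kept out of Mef2b. Read numbers are not given, so depth was estimated from the step between low FPKM values. It was 22.9, 18.6 and 24 M fragments (M, mega) in control replicates 1 to 3 and 22.1, 23.3 and 21.3 M with Msx1. Whole reads were not recovered, since 36.8% to 41.4% of the low values came within 0.1 of a whole multiple and an unrelated step would give 20%.

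Genes whose mean reached 0.5 FPKM were tested with limma 3.58.1 in R 4.3.3, on log2(FPKM + 1), with a trended prior variance and Benjamini-Hochberg adjustment. The log2(FPKM + 1) scale understates the change of low genes. Folds are ratios of mean FPKM. The same test was run on transcripts and, where the mean share was between 5% and 95%, on transcript shares. A share entered as log2 of (transcript FPKM + 0.5) over (FPKM of the gene's other transcripts + 0.5). Only the gene fit and a simplified fit of shares, without the trended prior variance, were tested on simulated data. Named genes were all members, up to 4 of each list with the smallest adjusted p, and the 3 genes most like the called member with the largest change; others were named after their values were seen. The members and lists were chosen with earlier results of these data known. Alternatives changed the scaling, filter, pseudocount, variance model and libraries. A comparison of alternative exons in 1 gene is not reported here.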

Additional observations from a re-analysis of the deposited data

How the results depend on the processing

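Mef2a, Tead2, Vgll4, Ankrd1, Ccn1 and Ccn2 kept their call and sign in all 17 refits, and the counts of genes called and of pathway genes called stayed within 1.5 times. Other scalings moved the split of all calls from 2718 higher and 4014 lower to 3292 and 3199 (median of ratios) or 3494 and 2814 (equal totals without Msx1), and the median change from -0.07 to -0.002 and 0.03. They moved the pathway lists from 36 higher and 18 lower to 40 and 13, and to 41 and 12. With the most abundant transcript per gene, 1 of the 10 genes was called higher, against 5. With a library left out, 3 to 4 were called higher and 1 to 2 lower, and with sample weights 2 were lower. The change of Yap1 ran from -0.51 to 0.09 with a library left out, changing sign only without Msx1 replicate 1 (0.09). Without control replicate 2 alone it was -0.30. With both of these libraries left out, an alternative chosen after seeing the data, it was 0.10. Transcript shares called higher and lower were 23 to 43 and 19 to 36 with a library left out, and with shares from 1% to 99% 62 were lower, against 37 and 35. The causes were not tested. With the replicate number as a block, 4 of the 10 genes were called higher and 1 lower, Tead3 was lost (adjusted p = 0.0725), and 0 transcript shares were called in either direction. The deviations of same-numbered libraries from their group means correlated at 0.055, 0.226 and 0.037, and control replicate 1 correlated best with Msx1 replicate 3, so the numbers were not treated as pairs. Rough depths and the estimated division of reads among transcripts limit Mef2b, Mef2c and all exon shares.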
